A study of Mus musculus with 12 samples.

Results

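The genes described here are the kinase genes Sgk1 and Sgk3, the ubiquitin ligase genes Nedd4 and Nedd4l, and Tsc22d3, which encodes GILZ. The 5 genes were named by symbol, and all 5 are listed in both expression tables, which together list 11247 genes. They were chosen by symbol with the FPKM values and fold changes of these same comparisons in view, so the levels and fold changes of these 5 genes are given as a description, with no test. The data are RNA-seq libraries of mouse CD4+ T cells, 12 in all, with 4 independent cultures in each of 3 groups. Naive CD4+CD62L+ cells from spleens of C57BL/6 mice aged 8 to 10 weeks were the start of every culture, and plate-bound anti-CD3 and anti-CD28, each at 1 µg/ml, activated the cells of every group. Th0 cells received no polarizing cytokine. Th17 cells received IL6 at 30 ng/ml and TGFb1 at 5 ng/ml with antibodies to IL4 and IFNg at 10 µg/ml each. iTreg cells received IL2 at 10 ng/ml and TGFb1 at 10 ng/ml, per the labels. The paper's methods give a higher TGFb1 dose for iTreg cultures, so the dose behind these libraries is uncertain. RNA was taken after 3 days. TGFb1 at different doses was thus common to both polarized groups, IL6 and the neutralizing antibodies were given to Th17 cells, and exogenous IL2 to iTreg cells. The cultures are mixed populations, and a change in the share of cells that express a gene cannot be told apart from a change in its RNA per cell.

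SGK1, the serum- and glucocorticoid-regulated kinase, belongs to the AGC kinases with AKT and S6K. It is switched on by PDK1 and mTOR complex 2 and phosphorylates FOXO transcription factors, NDRG1, and the ligase NEDD4L. Its level is set in large part by transcription of the gene and by rapid turnover of the protein. In T cells SGK1 is known as the kinase that connects salt and the IL23 receptor to the Th17 program. SGK3 is a relative that carries a lipid-binding PX domain and is held at endosomes. NEDD4 and NEDD4L are HECT-type ubiquitin ligases with WW domains, and in kidney epithelium NEDD4L removes the sodium channel ENaC from the cell surface until SGK1 phosphorylates it. GILZ is a leucine zipper protein induced by glucocorticoids and by FOXO factors, and it restrains NF-kB and AP-1.

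The levels are FPKM, reads scaled to gene length and library size, so they can be compared between genes. The reads recovered from the FPKM of the listed genes came per library to 7185347 to 9284042 in Th0 (Th17 table), 7696510 to 9412634 in Th17, and 9218473 to 10628620 in iTreg. Libraries are called by their column headings, which end in _1 for Th0, _5 for Th17, and _4 for iTreg and begin with M22, M29, M42, or M43. Libraries with the same beginning deviated together from their group means (r = 0.45 to 0.784 in the Th17 table and 0.662 to 0.769 in the iTreg table, across genes), while those with other beginnings gave r of -0.59 to 0.434 and -0.576 to 0.248. All 4 T cell markers (Cd3d, Cd3e, Cd4, and Thy1) were listed in both tables. Of the markers of other cells, those listed were Cd8b1, at most 6.6 FPKM, Cd79a of B cells, at most 3.84, Zbtb46 of dendritic cells, at most 1.44, and Itgam of macrophages, at most 0.628, while no NK cell marker was listed.

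One Th17 library stood apart. Foxp3, the lineage factor of regulatory T cells, was at 42.5 FPKM in M43_5 and at 0.499, 0.502, and 4.5 FPKM in M22_5, M29_5, and M42_5. In the 4 iTreg libraries Foxp3 was at 91.7, 66.6, 62, and 80.5 FPKM. Th0 libraries M22_1, M29_1, M42_1, and M43_1 held 7.24, 6.91, 2.04, and 3.41 FPKM of Foxp3. M43_5 also held the Th17 cytokine gene Il17f at 366 FPKM, against 281 to 788 FPKM in the other 3 Th17 libraries. Values for Th17 cells are therefore given below with and without M43_5 where this library carried them.

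Sgk1 was scarce in Th0 cells and much higher in both polarized groups. In Th0 libraries M22_1, M29_1, M42_1, and M43_1 it stood at 0.61, 0.858, 0.39, and 0.515 FPKM, on 19, 28, 15, and 20 reads. In Th17 libraries M22_5, M29_5, M42_5, and M43_5 it stood at 8.67, 6.82, 12.9, and 43.4 FPKM, on 294, 273, 471, and 1626 reads. In iTreg libraries M22_4, M29_4, M42_4, and M43_4 it stood at 14.5, 9.45, 9.61, and 10.1 FPKM, on 658, 388, 360, and 375 reads. Every polarized library was far above every Th0 library, and the Th17 and iTreg ranges overlapped. The means were 0.593 ± 0.198 in Th0, 18 ± 17.2 in Th17, and 10.9 ± 2.41 FPKM in iTreg (SD, n = 4 each), which put Th17 30.3 times and iTreg 18.6 times above Th0. On the log2(FPKM + 1) scale, where the difference of a gene this low in Th0 comes out too small, the differences were 3.21 (SE 0.47) and 2.90 (SE 0.15). On the reads, fitted with limma-voom, the log2 fold changes were 4.55 (SE 0.99) and 4.24 (SE 0.33).

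The Th17 mean of Sgk1 and its wide SD rested on M43_5. Without it the other 3 Th17 libraries averaged 9.47 ± 3.13 FPKM (SD, n = 3), 16 times Th0, and M43_5 was 4.59 times that mean. Of the 10269 genes tested in the Th17 table, Sgk1 ranked 12 for how far M43_5 lay above the other Th17 libraries, with Foxp3 first. Of the 4 iTreg markers, Il2ra, the IL2 receptor alpha chain, was also highest in M43_5 among the Th17 libraries (425 against 218 to 277 FPKM), while Ikzf2 (0.377 against 0.481 to 0.562 FPKM) and Ctla4 (104 against 140 to 148 FPKM) were lowest there. Sgk1 in M43_5 was above all 4 iTreg libraries, at 43.4 against 10.1 FPKM in M43_4. The part of the Foxp3 and Il2ra levels in the Sgk1 value of this library was not tested. A Th17 library far from the other 3 (past Dixon's limit for 4 values) was found for 5.68% of the tested genes, and M43_5 was the high value for 0.847%.

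**Figure D1:**
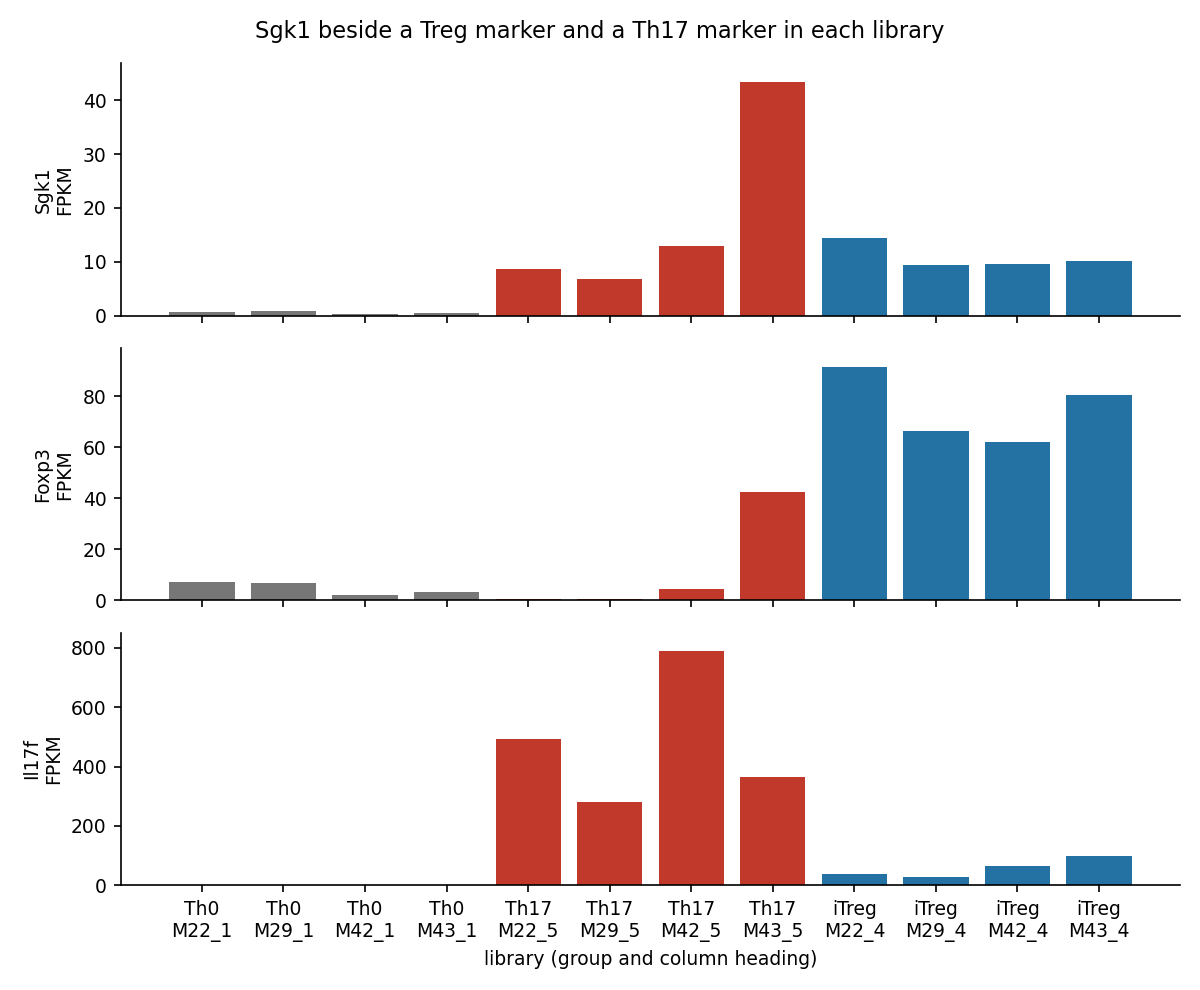
Bars give the FPKM of Sgk1, Foxp3, and Il17f on linear axes from 0 in each library (grey, Th0 as scaled in the Th17 table; red, Th17; blue, iTreg). Sgk1 in Th17 library M43_5 (43.4 FPKM) stands above all other libraries, and the same library holds 42.5 FPKM of Foxp3 beside 366 FPKM of Il17f.

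The Sgk1 gene lies on the plus strand at chr10:21882184-21999903 (GRCm38, GENCODE), with no overlap between its exons and those of another gene. RefSeq promoter windows on GRCm38.p6 gave 6 start sites for Sgk1, 2 for Nedd4, and 3 for Tsc22d3, and Sgk3 had no entry. The FPKM values sum over all transcripts of a gene, so which start was used in these cells is not known from them. In the 250 bases before each start, both strands were searched for the consensus glucocorticoid response element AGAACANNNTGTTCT, the FOXO site GTAAACA, the STAT site TTCCNGGAA, and the SMAD palindrome GTCTAGAC. Of the 11 windows of Sgk1, Nedd4, and Tsc22d3, 1 matched. Windows of Nedd4l are not reported here. It lies before the start of transcript Sgk1-202 at chr10:21993640-21993889 and holds the glucocorticoid element, beginning 189 bases upstream of the start. It is shown with the window of the principal transcript Sgk1-201 at chr10:21994416-21994665, which held none of the 4 motifs. Capitals mark the element, and both windows are on the plus strand and outside annotated Sgk1 exons.

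Sgk1-202 window: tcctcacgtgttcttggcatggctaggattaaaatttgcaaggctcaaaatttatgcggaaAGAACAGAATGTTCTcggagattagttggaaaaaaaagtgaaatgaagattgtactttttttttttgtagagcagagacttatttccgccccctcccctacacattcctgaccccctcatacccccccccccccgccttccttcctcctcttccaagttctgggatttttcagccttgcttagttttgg
Sgk1-201 window: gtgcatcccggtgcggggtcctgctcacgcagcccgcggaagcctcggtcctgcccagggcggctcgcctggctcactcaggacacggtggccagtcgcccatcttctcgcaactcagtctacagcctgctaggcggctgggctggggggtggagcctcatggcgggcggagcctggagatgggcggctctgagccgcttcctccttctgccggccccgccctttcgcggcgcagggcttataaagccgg

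The glucocorticoid element in this exact form was in 3 of all 32817 windows of that length (0.00914%), those of Sgk1, Acnat2, and Gm35041. The FOXO site was in 3.16%, the STAT site in 0.914%, and the SMAD palindrome in 0.168% of the windows. A match is a description of the letters and says nothing of binding in these cells.

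Sgk3 was lowest in Th0, intermediate in Th17, and highest in iTreg. Its Th0 libraries (M22_1, M29_1, M42_1, M43_1) held 1.33, 1.68, 1.06, and 1.01 FPKM, the Th17 libraries 2.66, 2.86, 2.70, and 2.33 FPKM, and the iTreg libraries 3.60, 3.48, 5.94, and 4.67 FPKM. None of the 3 ranges overlapped. The means were 1.27 ± 0.306, 2.64 ± 0.222, and 4.42 ± 1.15 FPKM (SD, n = 4 each), so the ratio to Th0 was 2.08 in Th17 and 3.52 in iTreg. The log2(FPKM + 1) differences were 0.69 (SE 0.12) and 1.25 (SE 0.16). These values rested on 53 to 74 reads in Th0, 118 to 155 in Th17, and 193 to 301 in iTreg. The gene lies at chr1:9798107-9900845 on the plus strand, with no exonic base shared with another gene. M43_5, where Sgk1 was highest, held the lowest Sgk3 value of the Th17 group.

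Nedd4 was, after Sgk1, the gene of the 5 with the largest difference, and unlike Sgk3 its mean was higher in Th17 than in iTreg. In Th0 it was at 0.996, 0.325, 0.669, and 0.780 FPKM (41, 14, 34, and 40 reads). In Th17 it was at 9.15, 5.50, 17.3, and 12.2 FPKM (410, 291, 831, and 602 reads). In iTreg it was at 5.19, 1.75, 5.11, and 7.30 FPKM (311, 95, 253, and 359 reads). All Th17 and iTreg libraries were above all Th0 libraries, while the polarized groups overlapped with each other. Within every heading beginning the Th17 library was above the iTreg library (4 of 4). The libraries beginning M29 were the lowest of each group. The means were 0.692 ± 0.28, 11 ± 4.97, and 4.84 ± 2.29 FPKM (SD, n = 4 each), 15.9 and 7.07 times Th0, with log2(FPKM + 1) differences of 2.74 (SE 0.29) and 1.70 (SE 0.31). On the reads the log2 fold changes were 3.95 (SE 0.57) and 2.72 (SE 0.64). In contrast to Sgk1, the M43_5 value of Nedd4 lay within the range of the other Th17 libraries.

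Nedd4 lies on the plus strand at chr9:72662346-72749852, clear of the exons of any other gene. The window before the start of its principal transcript, Nedd4-201, at chr9:72662081-72662330 on the plus strand, is shown because this gene was higher in both polarized groups. It held none of the 4 motifs, so it has no capitals, and GENCODE places the start 15 bases further downstream than RefSeq.

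Nedd4-201 window: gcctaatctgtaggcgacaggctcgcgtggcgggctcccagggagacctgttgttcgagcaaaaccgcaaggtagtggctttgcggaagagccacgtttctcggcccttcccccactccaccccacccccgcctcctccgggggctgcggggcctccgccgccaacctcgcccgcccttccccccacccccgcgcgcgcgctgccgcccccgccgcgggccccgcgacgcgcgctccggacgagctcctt

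Tsc22d3 had the highest Th0 level of the 5 genes. Its FPKM in Th0 was 6.76, 12.6, 4.65, and 6.41, in Th17 18.8, 17.7, 9.63, and 22.7, and in iTreg 16.8, 19.8, 8.43, and 9.70. Both polarized groups overlapped with Th0, since M29_1 exceeded 1 Th17 library and 2 iTreg libraries. Within each heading beginning, though, the polarized library was the higher one in 4 of 4 pairs in both comparisons, by ratios of 1.41 to 3.54 for Th17 and 1.53 to 2.52 for iTreg. The means were 7.60 ± 3.45, 17.2 ± 5.5, and 13.7 ± 5.49 FPKM (SD, n = 4 each), with log2(FPKM + 1) differences of 1.10 (SE 0.31) for Th17 and 0.78 (SE 0.33) for iTreg. With the heading beginning as a term the SEs were 0.19 and 0.12. Read numbers were 107 to 246 in Th0, 210 to 509 in Th17, and 189 to 486 in iTreg. The gene lies on the minus strand at chrX:140539528-140600659 and shares no exonic base with another gene.

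**Figure D2:**
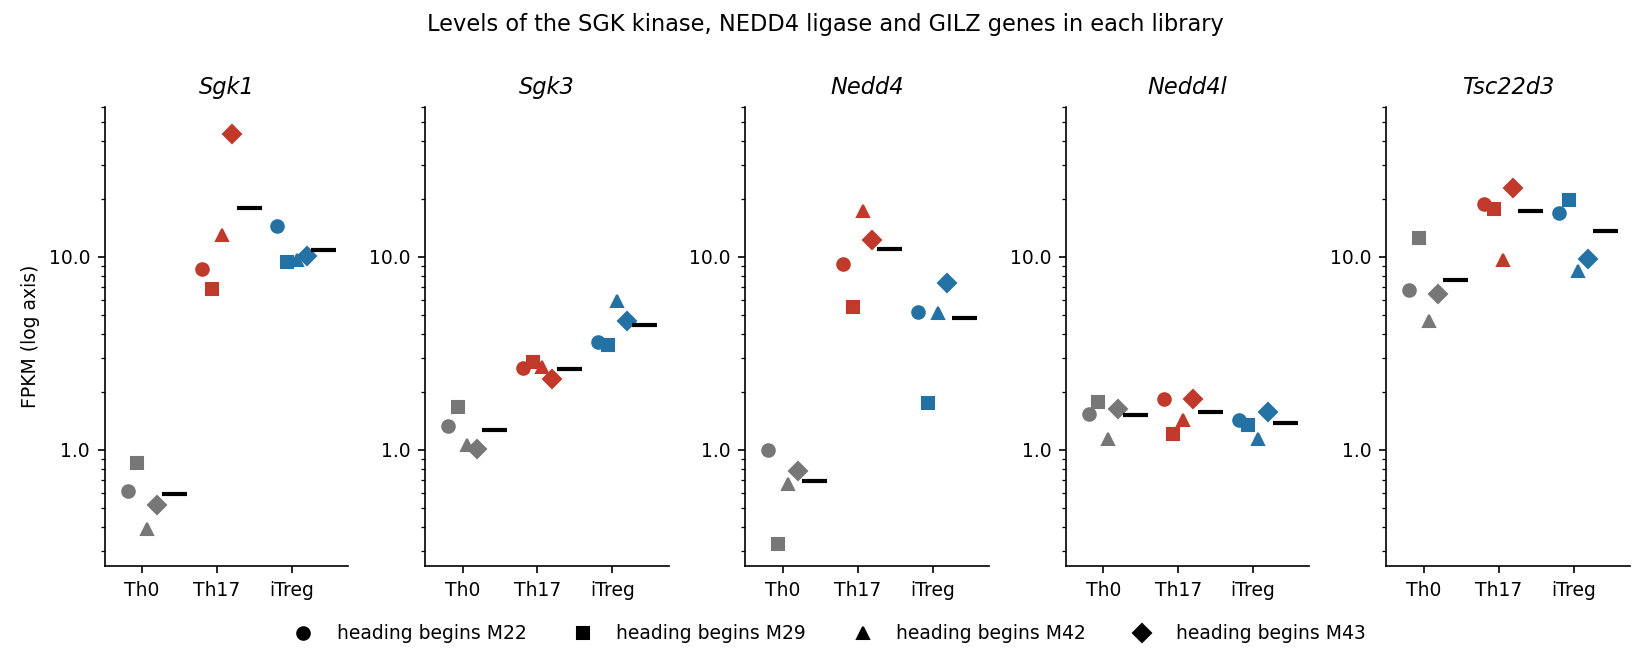
Each point is the FPKM of a gene in 1 library on a log axis, by group, with marker shapes for the heading beginnings, black bars for the group means, and Th0 as scaled in the Th17 table. Sgk1, Sgk3, and Nedd4 of every polarized library lie above all 4 Th0 libraries, Tsc22d3 overlaps, and Nedd4l stays between 1.13 and 1.84 FPKM in all 12 libraries.

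Nedd4l, the ligase that SGK1 phosphorylates, showed no difference larger than the spread between libraries. Its FPKM was 1.53, 1.77, 1.14, and 1.63 in Th0, 1.83, 1.20, 1.43, and 1.84 in Th17, and 1.43, 1.34, 1.13, and 1.58 in iTreg. The 3 groups overlapped fully, on 88 to 143 reads per library. The means were 1.52 ± 0.27, 1.58 ± 0.315, and 1.37 ± 0.188 FPKM (SD, n = 4 each), and the log2(FPKM + 1) differences were 0.03 (SE 0.13) for Th17 and -0.07 (SE 0.11) for iTreg. With these errors a small difference in either direction was not detectable. Nedd4l lies at chr18:64887705-65217828, and 1.57% of its exonic bases also belong to A330084C13Rik. Counted without strand, a read on such shared bases cannot be assigned to either gene alone.

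The order of the levels differed between groups. In Th0 cells Nedd4l was above Nedd4 and Sgk1 in all 4 libraries, at means of 1.52 against 0.692 and 0.593 FPKM. In all 8 polarized libraries Nedd4 and Sgk1 were above Nedd4l. By means, the order in Th0 was Tsc22d3, Nedd4l, Sgk3, Nedd4, and Sgk1, of which Nedd4l and Sgk3 overlapped, as did Nedd4 and Sgk1. In Th17 it was Sgk1, Tsc22d3, Nedd4, Sgk3, and Nedd4l, and the ranges of the first 3 overlapped, while Sgk3 and Nedd4l lay apart from their neighbours. Without M43_5 Sgk1 came after Tsc22d3 and Nedd4 in Th17, at 9.47 FPKM against 15.4 and 10.6 (means, n = 3). In iTreg it was Tsc22d3, Sgk1, Nedd4, Sgk3, and Nedd4l, where Tsc22d3 overlapped with Sgk1 and Nedd4 with Sgk3.

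**Figure D3:**
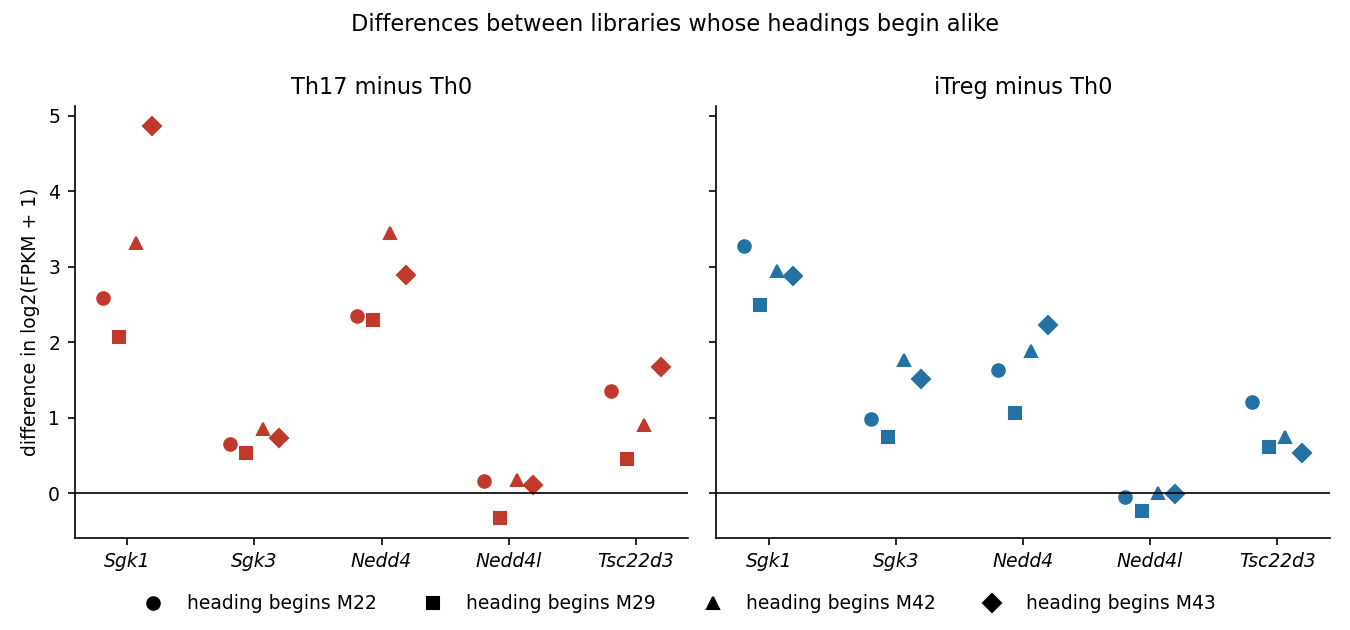
Each point is the difference in log2(FPKM + 1) between a polarized library and the Th0 library whose heading begins alike, for Th17 (left) and iTreg (right). Sgk1, Sgk3, Nedd4, and Tsc22d3 lie above 0 in every pair, Nedd4l lies around 0, and the pair M43 gives the largest Sgk1 difference in Th17, at 4.87.

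Set beside each other, Th17 and iTreg differed most in Sgk3 and Nedd4. The ratio of the Th17 to the iTreg mean was 1.65 for Sgk1, or 0.868 without M43_5, 0.597 for Sgk3, 2.28 for Nedd4, 1.15 for Nedd4l, and 1.26 for Tsc22d3. Sgk3 was higher in iTreg in every heading beginning and without overlap, Nedd4 was higher in Th17 in 4 of 4 beginnings, and Sgk1 was higher in Th17 in 2 of 4. The ratios of the other 4 genes without M43_5 were 0.62, 2.2, 1.09, and 1.12, in the same order. Both comparisons share the same Th0 libraries, and the authors scaled the tables separately, which put the FPKM of a Th0 library 0.886% to 1.21% higher in the Th17 table. The polarized groups were therefore not tested against each other.

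In the fit of all genes with limma on log2(FPKM + 1), 4 of the 5 genes passed a false discovery rate (FDR) of 0.05 in Th17 and 3 in iTreg, all higher. In the whole tables, 19.3% of 10269 genes tested passed in Th17, 10.6% as higher and 8.69% as lower, and 16.6% of 10208 passed in iTreg, 8.36% higher and 8.21% lower. Tsc22d3 was the gene not past the limit in iTreg besides Nedd4l. With the heading beginning as a term, 4 genes passed in each comparison, among 37.8% and 40.9% of all tested genes. The 3 genes without overlap and higher in the polarized group (Sgk1, Sgk3, and Nedd4 in both comparisons) compare with 13.2% and 11.7% of all tested genes. Nothing is read from these counts, because the same contrasts were used when the genes were chosen, and because Sgk1 and Nedd4, below 1 FPKM in every Th0 library, passed the filter on low values through the polarized libraries alone.

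The surrounding pathway was described with 12 lists of 82 other genes, of which 73 were listed in a table. In Th17 cells 18 of 71 tested genes rose and 5 fell, together 32.4% against 19.3% of all tested genes (limma, Benjamini-Hochberg FDR 0.05). In iTreg cells 9 of 69 rose and 6 fell, 21.7% against 16.6%. With the heading beginning as a term, 38 and 29 of these genes passed, 53.5% and 42%, against 37.8% and 40.9% of all genes. The median log2 fold change of the pathway genes was 0.21 in Th17 and 0.01 in iTreg, and that of all tested genes was within 0.01 of 0. Il23r, Il17a, and Il17f (Il17f alone in iTreg) were at or below 1 FPKM in every Th0 library and passed the filter on low values through the polarized libraries. Without genes that have a whole group at or below 1 FPKM, 20 of 68 pathway genes passed in Th17 (29.4%) and 14 of 68 in iTreg (20.6%), against 17.9% and 15.5% of all genes tested. Prr5l, over 1 FPKM in M29_1 alone of the Th0 libraries, stays in these counts. Adjusted p-values below are from limma over all tested genes. Where a call is given as lost or gained without a library, it was so in at least 1 of the fits without that library, with the filter on low values applied again or with the same genes kept.

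Of the 6 genes tested that encode the machinery activating SGK1, 1 passed in each comparison (16.7%). Of all tested genes 19.3% passed in Th17 and 16.6% in iTreg. Pdpk1, the kinase PDK1, was at 19.3 FPKM in Th17 and 20.5 in Th0 (adjusted p = 0.67), and Rictor, the defining subunit of mTOR complex 2, was at 12.6 and 10.5 FPKM (adjusted p = 0.28). Neither passed in iTreg (adjusted p = 0.97 and 0.54). Prr5l, a subunit that binds mTOR complex 2, was that gene and rose in both. It went from 0.511 to 1.06 FPKM in Th0 libraries to 5.52 to 12.2 in Th17 and 2.84 to 4.74 in iTreg. The log2 fold changes were 2.38 (SE 0.22) and 1.51 (SE 0.16). Like Sgk1, Prr5l thus went from near 1 FPKM or less to several FPKM. Of the Th0 libraries M29_1 alone held over 1 FPKM of Prr5l. The gene thus passed the filter on low values through the polarized libraries, so no p-value is given and nothing is read from its call. Among the AGC kinase relatives, 2 of 7 tested genes passed in Th17 (28.6%) and 1 in iTreg (14.3%). With the heading beginning as a term 3 passed in each (42.9%), against 37.8% and 40.9% of all tested genes. Akt1 was at 68.4 FPKM in Th17, 66 in iTreg, and 63.6 in Th0 and passed in neither (adjusted p = 0.59 and 0.78). Rps6ka3, the kinase RSK2, rose in Th17 (log2 fold change 0.58, adjusted p = 0.0043), Rps6ka1, RSK1, fell there (-0.66, adjusted p = 0.0091), and Akt2 fell in iTreg (-0.44, adjusted p = 0.008). Rps6ka1 did not pass in iTreg (-0.32, adjusted p = 0.11) unless the heading beginning was a term (adjusted p = 0.01). Sgk2, the third SGK gene, was in neither table.

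Of the other HECT ligases of the NEDD4 family, 4 of 5 tested rose in Th17 cells and 2 of 5 rose in iTreg. Of all tested genes 10.6% rose in Th17 and 8.36% in iTreg. Wwp1 went from 5.12 to 11.8 FPKM in Th17 (log2 fold change 1.07, SE 0.11, adjusted p = 0.00022) and stood at 5.45 FPKM in iTreg (0.08, SE 0.13, adjusted p = 0.74). Wwp2 rose by 0.72 in Th17 (adjusted p = 0.017), a call lost without M22_5 or M29_5 (adjusted p = 0.051 to 0.055), and did not pass in iTreg (0.33, adjusted p = 0.1) unless the heading beginning was a term (adjusted p = 0.0076). Smurf1, a ligase of the BMP and TGFb pathway, rose in both (0.82, adjusted p = 0.0097, and 0.69, adjusted p = 0.019), the iTreg call being lost without M22_1, M42_1, M43_1, or M22_4 (adjusted p = 0.05 to 0.06). Its relative Smurf2 rose by 0.51 (adjusted p = 0.024) and 0.46 (adjusted p = 0.03). The Smurf2 call was lost without M22_1, M42_1, M43_1, M22_5, M29_5, or M43_5 in Th17 (0.05 to 0.073), and without any 1 library but M29_1 in iTreg (0.051 to 0.083). Itch, whose loss causes autoimmunity in mice, did not pass (18 FPKM in Th17, 15.4 in iTreg, and 15.6 in Th0, adjusted p = 0.21 and 1). Of the adaptors that bring these ligases to membrane targets, Ndfip1 was the most abundant gene at 371 FPKM in Th0, 350 in Th17, and 320 in iTreg and did not pass (adjusted p = 0.68 and 0.19), nor did Ndfip2 (0.25 and 0.43). In that list of 6 tested genes none rose or fell in Th17 and 1 rose in iTreg, Arrdc3 (0.58, adjusted p = 0.031), a call lost without M22_1, M29_1, M43_1, M29_4, M42_4, or M43_4 (0.051 to 0.084). With the heading beginning as a term, 3 adaptors passed in Th17 (50%) and 2 in iTreg (33.3%). Of all tested genes 37.8% and 40.9% passed with that term.

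Of 8 substrates of SGK1, 2 passed in Th17 (25%) and 1 in iTreg (12.5%), against 19.3% and 16.6% of all tested genes. With the heading beginning as a term 4 passed in each (50%), against 37.8% and 40.9%. Foxo1, called in both, is a transcription factor that keeps T cells quiescent and that AGC kinases exclude from the nucleus. It was at 21.1 to 23.5 FPKM in Th0, 77.6 to 90.5 in Th17, and 45.4 to 52.8 in iTreg, without overlap between any 2 groups. Its log2 fold changes were 1.90 (SE 0.09, adjusted p = 6.1e-06) and 1.11 (SE 0.09, adjusted p = 9.4e-05). Foxo3 was lower in Th17 without passing (-0.60, adjusted p = 0.057), and passed with the heading beginning as a term (adjusted p = 0.011) or without M29_1 or M43_5 (adjusted p = 0.017 to 0.031). Wnk1, a kinase of ion transport, fell in Th17 (-0.66, adjusted p = 0.013). Ndrg1, whose phosphorylation is the usual readout of SGK1 activity, did not pass at the RNA level (0.08, adjusted p = 0.87 in Th17, and -0.49, adjusted p = 0.25 in iTreg, or 0.011 there with the heading beginning as a term). RNA levels do not show the phosphorylation of any of these proteins.

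Targets of FOXO factors and of glucocorticoids, 2 of the known inputs of Tsc22d3, were each described by a list. Of 10 FOXO targets tested, 3 rose in Th17 and none passed in iTreg (limma), and the list medians were 1.15 and 0.01. Of all tested genes 10.6% rose in Th17, and 16.6% passed in iTreg. Il7r, the IL7 receptor chain, went from 4.62 to 30.7 FPKM in Th17 (2.47, SE 0.29, adjusted p = 0.00053), and Ccng2, a cyclin of non-dividing cells, from 26.6 to 63.8 (1.21, adjusted p = 0.0012). S1pr1, the receptor for exit from lymphoid tissue, rose by 2.17 (adjusted p = 0.028), lost without M22_1, M42_1, M43_1, M22_5, M29_5, or M43_5 (0.061 to 0.076). In iTreg S1pr1 differed by 0.90 (adjusted p = 0.23, or 0.00063 with the heading beginning as a term). Klf2 in Th17 did not pass (1.24, adjusted p = 0.13), but did with that term (adjusted p = 0.02) or without M42_5 (adjusted p = 0.021 to 0.022). In the fit with that term 7 of the 10 FOXO targets passed in Th17 and 1 in iTreg. All tested genes passed at 37.8% and 40.9% in that fit. Of the other glucocorticoid genes, 2 of 6 passed in each comparison, 1 higher and 1 lower (33.3%, against 19.3% and 16.6% of all tested genes). With the heading beginning as a term 3 passed in each (50%). In Th17 Zfp36, an mRNA-decay factor, rose (1.22, adjusted p = 0.022, lost without M22_1, M43_1, M22_5, or M29_5 at 0.053 to 0.067) and Per1 of the clock fell (-0.48, adjusted p = 0.014). In iTreg Klf9 rose (1.00, adjusted p = 0.0048) and Fkbp5, a classical glucocorticoid-induced gene, fell from 22.7 to 12.7 FPKM (-0.78, SE 0.13, adjusted p = 0.0041). Per1 did not pass in iTreg (-0.34, adjusted p = 0.072), but did with the heading beginning as a term (adjusted p = 0.011) or without M29_4 (adjusted p = 0.043 to 0.045). The receptor gene Nr3c1 was at 18.7 FPKM in Th0, 23.2 in Th17, and 16 in iTreg and did not pass (adjusted p = 0.21 and 0.39). None of the 3 other TSC22 family genes passed in either comparison, also with the heading beginning as a term, and their log2 fold changes ran from -0.24 to 0.25.

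**Figure D4:**
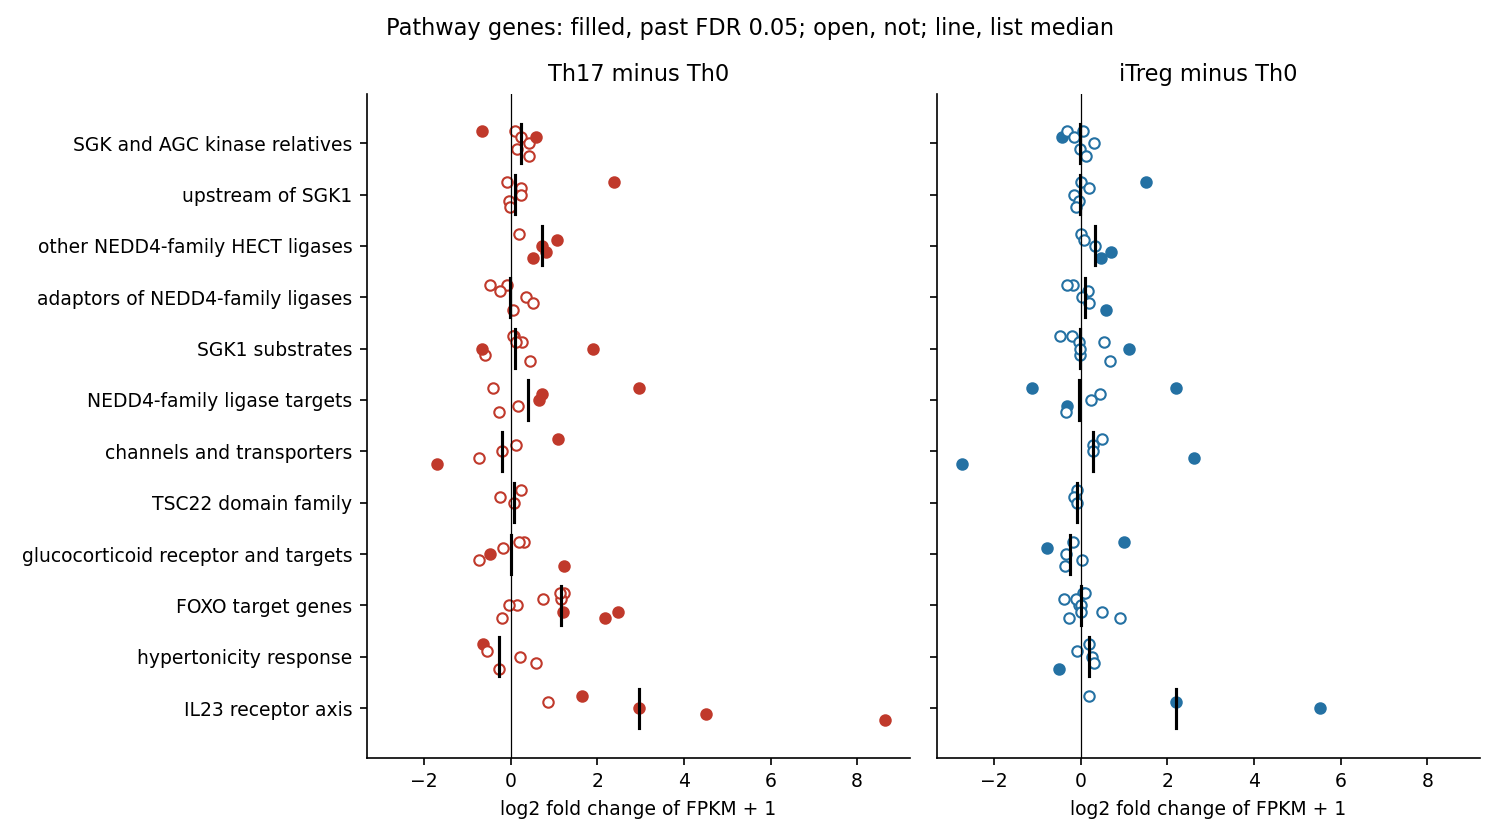
Each point is the log2 fold change of log2(FPKM + 1) of a tested pathway gene in Th17 (left) and iTreg (right), filled where it passed FDR 0.05 with limma, by list, with a black line at the list median (1 gene stands in 2 lists). The other NEDD4-family ligases lie above 0 in Th17, with 4 of 5 filled, and the FOXO targets have medians of 1.15 in Th17 and 0.01 in iTreg. Of all tested genes, 19.3% passed in Th17 and 16.6% in iTreg.

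In the salt and IL23 arm of the pathway, the ENaC subunit genes Scnn1a, Scnn1b, and Scnn1g were in neither table. Of the 5 channels and transporters tested, 2 passed in each comparison (40%), against 19.3% and 16.6% of all tested genes. With the heading beginning as a term 2 passed in Th17 (40%) and all 5 in iTreg, against 37.8% and 40.9%. Kcna3, the voltage-gated potassium channel Kv1.3, fell in both groups, from 27 to 49.8 FPKM in Th0 libraries to 6.21 to 15.9 in Th17 and 3.04 to 6.12 in iTreg (-1.69, adjusted p = 0.0054, and -2.75, adjusted p = 0.00013). Atp1b1, the beta subunit of the sodium pump, rose in iTreg from 8.45 to 33.7 FPKM in Th0 to 61.8 to 191 (2.61, SE 0.44, adjusted p = 0.0047), and 18.7% of its exon sequence overlaps with Nme7. In Th17 Atp1b1 was at 5.90 to 9.74 FPKM in 3 libraries and at 31.5 in M43_5 (adjusted p = 0.41). Nfat5, the factor that drives the response to high salt, fell in Th17 (18.2 to 11.3 FPKM, -0.64, SE 0.11, adjusted p = 0.0042) and did not pass in iTreg (0.18, adjusted p = 0.39). Of the other 4 hypertonicity genes tested, none passed in Th17 without the heading beginning as a term and 3 with it, and Hspa4l fell in iTreg (-0.51, adjusted p = 0.042), a call lost without M22_1, M29_1, M42_1, M22_4, M29_4, or M42_4 (0.061 to 0.12). With the heading beginning as a term Hspa4l was 1 of those in Th17 (-0.28, adjusted p = 0.046).

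Il23r was at 3.30, 3.0, 1.60, and 1.65 FPKM in Th17 libraries M22_5, M29_5, M42_5, and M43_5 on 67, 72, 35, and 37 reads, and the 4 Th0 libraries held 5 reads in all. Among the Th17 libraries Il23r was highest in M22_5 and Sgk1 in M43_5, and a relation between them was not tested. Il23r and Il17a are not listed in the iTreg table. The cytokine gene Il17f, on 1 or 2 reads in each Th0 library, averaged 482 FPKM in Th17 and 57.6 FPKM in iTreg. Il17a was at 22.9, 7.27, 65.2, and 21.1 FPKM in the Th17 libraries and on 1 read in all in Th0. These 3 genes passed the filter through the libraries in which they were high, so their levels are given with no test.

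Among the other proteins that NEDD4-family ligases act on in T cells, Cblb, a ligase that restrains activation and is itself a NEDD4 target, fell in iTreg (-1.12, SE 0.17, adjusted p = 0.0029) and did not pass in Th17 (-0.41, adjusted p = 0.12). Junb and Plcg1 rose in Th17 (0.72, adjusted p = 0.035, and 0.66, adjusted p = 0.02). The Junb call was lost without M42_1, M22_5, M29_5, M42_5, or M43_5 (0.056 to 0.087) and the Plcg1 call without M42_1, M43_1, M22_5, or M43_5 (0.05 to 0.064). Prkcq, protein kinase C theta, fell slightly in iTreg (-0.32, adjusted p = 0.049), and that call was lost in 7 of 8 fits that left out 1 library, M43_4 being the exception, and ended with a pseudocount of 0.1 FPKM (adjusted p = 0.056). Exonic bases shared with neighbouring genes made up 6.68% of Plcg1, 7.52% of Junb, and 7.78% of Foxo1.

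The genes with the pattern most like each of the 5 were found by the lower of its correlations over the 8 libraries of each table, among 10078 genes tested in both. For Sgk1 they were 1600014C10Rik, Evpl, Ppm1j, Sec24a, and Dst (r = 0.967 to 0.988). For Sgk3 they were Ssbp4, Apol9a, and Orc3, and for Nedd4 they were Agap1, Ctnna1, and Hsdl2. For Tsc22d3 they were Irf9, Ets1, and S1pr1, and for Nedd4l, at lower r of 0.843 to 0.945, they were 6330416G13Rik, Spast, and Zc3hav1. Between the genes themselves, Sgk1 and Nedd4 gave r of 0.931 in the Th17 table and 0.886 in the iTreg table, Sgk1 and Sgk3 0.822 and 0.936, and Sgk1 and Nedd4l 0.303 and -0.219. The points share the group difference and the Th0 libraries, so these values describe the pattern and carry no test. With Tsc22d3, Irf9 gave r of 0.962 and 0.961, Ets1 0.984 and 0.957, and S1pr1 0.973 and 0.952.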

How the data were processed

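RNA of Th0, Th17, and iTreg cells from 4 independent cultures each was sequenced as paired 100-nt reads, 12 libraries in all. Per the labels and the methods, the authors mapped the reads with TopHat2 (2.0.14) to mm10, counted them on exons with HTSeq without strand, and kept genes with more than 1 CPM in at least 4 samples. The authors deposited 2 tables of FPKM values, 8 libraries each, scaled separately. The sources used here do not give how FPKM were computed or which annotation was counted on. The columns of the authors' own edgeR comparison (log fold change, average CPM, likelihood ratio, p-value, and FDR) were not used.

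The FPKM values were whole multiples of the value of 1 read, and reads were recovered within 0.001 of a whole number for all but 1 gene of each table. They are the smallest whole numbers in the ratio of a gene's values, so counts with a common factor in all libraries come out too low. Depth and counting error are therefore estimates for the listed genes. The reads of Th0 libraries were the same in both tables for 99.3% of 10885 genes. Each table was fitted with limma 3.58.1 (R 4.3.3) on log2(FPKM + 1), for genes above 1 FPKM in at least 4 of 8 libraries, with Benjamini-Hochberg FDR 0.05. The group of a column was inferred from the ending of its heading, since _1 stands in both tables, _5 only in the Th17 table, and _4 only in the iTreg table. Column headings name no group and no experiment number. Their beginnings entered as a term in an alternative fit, since libraries with the same beginning deviated together. The study was paired: its sample titles number 4 experiments, each with all 3 groups, and its tests were pair-wise. Which heading belongs to which numbered experiment is not given in the labels, so the main fit is unpaired and the link between beginnings and experiments is a hint from the data. Other alternatives were a pseudocount of 0.1 FPKM, no filter, a mean-variance trend, median-of-ratios scaling, FDR 0.01, each library left out in turn, and limma-voom on the reads. The scripts were tested on simulated data.

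The 5 genes, the 12 lists, and the markers were chosen with earlier results of these data known. Pathway genes are named by a rule: 16 fixed genes and, in each list, up to 3 genes past FDR 0.05 with the largest absolute change in each comparison; pattern neighbours are the 5 (Sgk1) or 3 genes with the highest lower r of both tables. Counts cover whole lists; 2 genes that the rule names are not reported here. Positions are from GENCODE vM21 and promoter windows from RefSeq (GRCm38.p6). Python 3.11.15 and pandas 2.3.3 were used.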

Additional observations from a re-analysis of the deposited data

Results flagged for a closer look

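Among 136 groups of 4 libraries of the 46 genes named, 8 had a library far from the other 3 (past Dixon's 95% limit), and chance flags about 1 group in 20. Of the 5 genes described, Sgk1 had 2 such values, 43.4 FPKM in Th17 library M43_5 against 6.82 to 12.9 in the others, and 14.5 FPKM in iTreg library M22_4 against 9.45 to 10.1. M43_5 was also high for Atp1b1, at 31.5 FPKM against 5.9 to 9.74. Nfat5 was at 21.1 FPKM in Th0 library M22_1 against 17.2 to 17.4. Rps6ka3 was low in Th17 library M22_5, at 34.5 FPKM against 37.1 to 37.2. Smurf1 was at 13.5 FPKM in Th0 library M29_1 against 8.13 to 8.54, and Zfp36 at 124 FPKM in Th17 library M29_5 against 84.1 to 86. Il17a was at 0.114 FPKM, on 1 read, in Th0 library M22_1 and listed at 0 in the other 3. With 3 equal values any other value passes the limit, so nothing is read from this flag.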

How the results depend on the processing

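Sgk1, Sgk3, Nedd4, and Tsc22d3 were higher in both polarized groups under every alternative that gave a value, while Nedd4l in Th17 ran from -0.0444 to 0.104 on the log2 scale with 1 library left out. The size of the fold change moved for 3 of them. With a pseudocount of 0.1 FPKM the log2 fold changes in Th17 and iTreg were 4.34 and 4.02 for Sgk1, 1.02 and 1.73 for Sgk3, and 3.77 and 2.57 for Nedd4. With limma-voom on the recovered reads, added after seeing the data, they were 4.55 and 4.24, 1.09 and 1.81, and 3.95 and 2.72, and with the heading beginning as a block as well 4.87 and 4.2, 1.06 and 1.84, and 4 and 2.81. A larger pseudocount brings low values together by construction.

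The column headings carry no replicate number, so the labels do not say which libraries are paired. If libraries with the same beginning came from the same experiment, the fit with a block on the beginnings is the paired analysis. With a replicate block on the heading beginnings, 3882 genes passed in Th17 and 4170 in iTreg in place of 1983 and 1691, and 38 and 29 pathway genes in place of 23 and 15. With limma-voom and the block these were 4048, 4478, 42, and 36. The block added the calls of Foxo3, Klf2, and Hspa4l in Th17 and of Ndrg1, Rps6ka1, Wwp2, Per1, and S1pr1 in iTreg, and changed no other call of a pathway gene named here. For Tsc22d3 in iTreg, described with no test, the SE of the difference was 0.33 without the block and 0.12 with it. At FDR 0.01, 995 and 778 genes passed, and 15 pathway genes in Th17.

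Leaving out 1 library at a time gave 1218 to 2237 genes in Th17 and 994 to 1521 in iTreg, and 14 to 27 and 10 to 13 pathway genes. The lowest counts came without M22_5 in Th17 (1218 and 14), where M43_1 (1313 genes) and M29_5 (15 pathway genes) also lowered a count by over 1.5 times, and without M22_4 in iTreg (994 genes). Sgk1, Nedd4, Il23r, Il17a, and Il17f failed the filter on low values, and had no value, where a polarized library was left out, so the same genes were also fitted without it, an alternative added after seeing the data. Of the pathway genes called, 17 of 23 in Th17 and 10 of 15 in iTreg kept the call in every such fit that gave a value, and 14 and 9 of these had a value in every fit. The cause of the other losses was not tested.

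Genes near 0 that passed no test changed sign. Median-of-ratios scaling gave -0.00546 for Itch and -0.00116 for Ccng2 in iTreg. Leaving out 1 library gave -0.085 to 0.295 for Ndrg1 and -0.0281 to 0.124 for Arrdc3 in Th17. In iTreg it gave -0.00557 to 0.144 for Akt1, -0.0442 to 0.0591 for Pdpk1, -0.0371 to 0.0323 for Itch, -0.00653 to 0.144 for Wwp1, -0.139 to 0.0439 for Foxo3, -0.365 to 0.403 for Klf2, -0.137 to 0.0799 for Wnk1, and -0.0644 to 0.102 for Ccng2. Read depth limits Sgk1 and Nedd4 in Th0, where 14 to 41 reads stand behind each value, and the p-values measure the spread between 4 cultures.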
